A study of Mus musculus with 9 samples.

Results

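Genes that mark injured kidney tubules, and tubule cells that do not return to their working state, were followed through RNA sequencing of whole mouse kidney. The set held 10 genes, Havcr1, Lcn2, Clu, Spp1, Sox9, Sox4, Vcam1, Dcdc2a, Sema5a and Plin2, chosen by name out of 56305 gene identifiers in the count table. All 10 were found there by matching the Ensembl identifiers to mouse symbols, and all 10 were among the 15974 genes that passed the low-count filter.

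The 9 libraries fell into 3 groups of 3. Sham wild-type kidneys carried the PFKFB3 WT genotype and had a sham operation. Injured wild-type kidneys had the same genotype and were taken at day 14 after ischemia-reperfusion injury (IRI), in which both renal arteries were closed with a clamp for 30 min. Injured knockout kidneys carried the PFKFB3 CKO genotype, a conditional loss of Pfkfb3 in proximal tubular cells (Pfkfb3ΔPTC in the labels), and were also taken at day 14 after IRI. Per the series' design text the controls were littermates of the knockout mice. The sources used here do not give the driver of recombination, the deleted part of Pfkfb3, or the strain, age and sex of the mice, and a knockout sham group was not analysed here. Pfkfb3 encodes an enzyme that controls the level of an activator of glycolysis, and the design text names its role in kidney fibrosis as the question. The labels do not state that the 3 libraries of a group were made from different mice, so a p-value speaks only for the variation among these libraries, part or all of which may be technical.

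After ischemia, surviving tubular epithelial cells lose transporters, take up a dedifferentiated state and divide to replace those that died. Most then differentiate again, while some stay in a proinflammatory and profibrotic state called failed repair, in which Vcam1, Dcdc2a and Sema5a are known markers in mouse proximal tubule. Havcr1, Lcn2, Clu and Spp1 encode surface or secreted proteins that injured tubules make, and Sox9 and Sox4 encode transcription factors of the developing and regenerating nephron. Plin2 encodes a coat protein of lipid droplets, which injured tubule cells can accumulate.

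Sham libraries totalled 18707315 to 19987842 counts, injured wild-type libraries 16946876 to 17873558 and injured knockout libraries 15626792 to 16426817. Transcripts of the mitochondrial genome took 8.46 to 11.3% of counts in sham libraries, 6.08 to 7.20% in injured wild-type ones and 12.7 to 13.9% in the injured knockout. Tubule, podocyte and endothelial markers were measured in every group, as fits kidney tissue. The targeted gene Pfkfb3 averaged 20.7 ± 1.06 CPM in the sham group, 32.0 ± 5.88 CPM after injury in the wild type and 20.8 ± 4.04 CPM in the injured knockout (SD, n = 3), where CPM is the count relative to the scaled size of its library. Knockout replicates 1, 2 and 3 held 25.2, 19.7 and 17.3 CPM of Pfkfb3. Knockout replicate 1 thus lay above every sham library (at most 21.9 CPM) and close to the lowest injured wild-type library (25.3 CPM). Counts of Pfkfb3 cover the whole gene in all cell types and are only a weak check of the genotype. Knockout replicate 1 stood apart from the other knockout libraries in several of the 10 genes and in markers of other cell types, and the comparisons and levels that moved most with it are given with and without it. In bulk RNA, fewer cells of a type and less RNA per cell cannot be told apart.

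One promoter sequence is shown, because the title of the series names NF-kB activation and the 250 bases before the start of Plin2 were the only stretch searched that held the NF-kB consensus. Promoter windows of 300 bases, from 250 before to 50 after a transcription start, came from RefSeq on GRCm38.p6. The table held 10 such windows for 7 of the 10 genes (3 for Havcr1, 2 for Spp1 and 1 each for Lcn2, Plin2, Dcdc2a, Sox4 and Sema5a), and Clu, Sox9 and Vcam1 are named only. The Plin2 sequence lies at chr4:86670060-86670309 on the minus strand of GRCm38.p6, is written 5′ to 3′ and ends at the base before the start. Capitals mark the match, whose first base is 123 bases before the start.
Plin2: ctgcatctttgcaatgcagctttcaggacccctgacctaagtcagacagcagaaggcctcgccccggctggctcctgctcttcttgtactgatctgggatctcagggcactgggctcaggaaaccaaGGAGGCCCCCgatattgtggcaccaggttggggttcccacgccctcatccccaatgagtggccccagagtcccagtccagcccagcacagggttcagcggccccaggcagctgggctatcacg

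Of all 32851 promoter windows in the table, 8.46% held the NF-kB consensus on either strand. The AP-1 motif TGANTCA was found in 1 window of Havcr1 (7.81% of all windows) and the STAT motif TTCNNNGAA in that of Dcdc2a (8.30%). Both windows of Spp1 held the SOX motif ACAAAG (18.7%) and 1 of them the TATA box letters TATAAA (13.6%). The first base of that TATAAA match lay at position -211 relative to the start. The hypoxia element ACGTG was found in windows of Dcdc2a, Havcr1 and Plin2 (19.6%), with overlapping matches on both strands in Plin2. None of these windows held the DR1 motif, a direct repeat bound by nuclear receptors, which 0.0396% of all windows held. A match is a description of letters only, and a link between any motif and the levels of these genes was not tested.

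The first comparison sets injured beside sham kidneys of the wild type at day 14, and the second injured knockout beside injured wild-type kidneys. After injury 9 of the 10 genes rose in wild-type kidneys and 0 fell, and the same 9 were lower in the injured knockout than in the injured wild type, with 0 higher. Of all tested genes 29.5% were called higher and 28.7% lower with injury, and 27.8% were called higher and 28.1% lower in knockout against wild-type. A gene was called when its p by the quasi-likelihood test of edgeR, adjusted by the Benjamini-Hochberg method over all tested genes, was under 0.05. The median log2 fold change of the 10 genes was 4.03 with injury and -3.71 for injured knockout against injured wild-type, beside 0.03 and -0.01 for all tested genes. Both comparisons share the injured wild-type libraries, so their values are set side by side only. For all 9, each injured wild-type library lay above each sham library (34.5% of tested genes) and each knockout library below each injured wild-type library (32.1%). None of the 10 genes was apart in the other direction, as 32.3 and 31.1% of tested genes were.

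**Figure D1:**
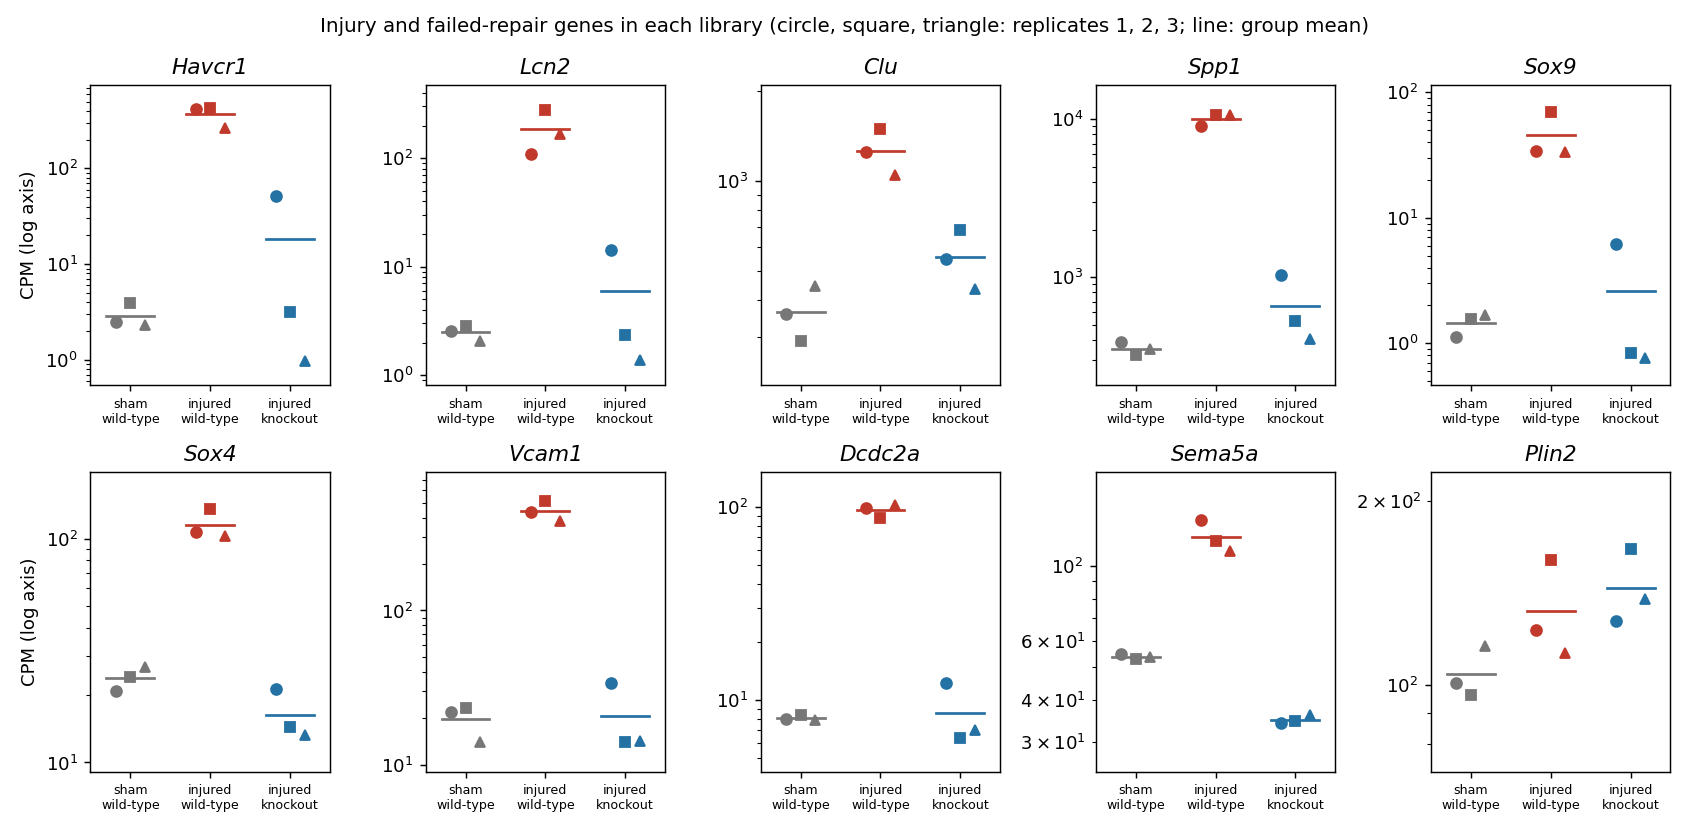
Level of each of the 10 genes in each library, in CPM on a log axis that differs between panels, for sham wild-type (grey), injured wild-type (red) and injured knockout (blue) kidneys, with replicates 1, 2 and 3 as circle, square and triangle and a line at the mean of 3 libraries. In 9 panels the injured wild-type libraries sit above the other 6, and for Havcr1 the knockout libraries spread from 0.963 to 51.1 CPM, with replicate 1 highest.

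Havcr1 (kidney injury molecule 1, a surface receptor through which injured proximal tubule cells engulf dying cells) is ENSMUSG00000040405 on chromosome 11, from 46735080 to 46779578 on the plus strand of mm10. It stood at 2.46, 3.93 and 2.32 CPM in sham replicates 1, 2 and 3, at 415, 423 and 267 CPM in injured wild-type libraries and at 51.1, 3.17 and 0.963 CPM in knockout libraries. Every injured wild-type library was far above the rest, and the knockout libraries differed from each other more than the sham libraries did. The knockout values rest on 699, 42 and 14 counts, against 6196 to 9512 counts in injured wild-type libraries. The log2 fold change with injury was 6.98 (SE 1.10, edgeR adjusted p = 0.000225). Knockout kidneys had less Havcr1 than wild-type ones after injury (log2 fold change -4.32, SE 0.94, edgeR adjusted p = 0.00213). Without knockout replicate 1 that value was -7.49, or 180-fold, and the SE of the injury comparison fell to 0.32, since 1 estimate of the spread serves all 3 groups.

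Lcn2 (neutrophil gelatinase-associated lipocalin, a secreted carrier of iron-binding siderophores that tubules and neutrophils release) is ENSMUSG00000026822 on chromosome 2, from 32384633 to 32388252 on the minus strand. Its level was 2.58, 2.82 and 2.08 CPM in sham, 109, 279 and 166 CPM in injured wild-type libraries, and 14.1, 2.34 and 1.38 CPM in knockout libraries. As with Havcr1, knockout replicate 1 lay between the groups, while the other knockout libraries lay at or below the sham level. Lcn2 was 31.2-fold lower in knockout than in wild-type injured kidneys (log2 fold change -4.96, SE 0.64, edgeR adjusted p = 5.33e-05), and 99.5-fold lower without knockout replicate 1. Its log2 fold change with injury was 6.20 (SE 0.69, edgeR adjusted p = 1.68e-05).

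Clu (clusterin, a secreted chaperone; ENSMUSG00000022037, chromosome 14, 65968483 to 65981547, plus strand) was abundant in every library. It measured 358, 291 and 442 CPM in sham, 1253, 1487 and 1049 CPM in injured wild-type libraries, and 545, 685 and 435 CPM in knockout libraries. Here the knockout libraries did not spread as they did for Havcr1, and knockout replicate 2 was the highest of them. Clu rose 3.47-fold with injury (log2 fold change 1.79, SE 0.20, edgeR adjusted p = 1.76e-05) and was 2.28-fold lower in knockout than in wild-type injured kidneys (-1.19, SE 0.20, adjusted p = 0.000356).

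Spp1 (osteopontin, a secreted phosphoprotein that binds integrins and CD44) is ENSMUSG00000029304 on chromosome 5, from 104435118 to 104441050 on the plus strand. Per exon length it was the most abundant of the 10 in each group. By CPM, Clu was higher in sham replicate 3 and in knockout replicates 2 and 3. Sham libraries held 389, 321 and 349 CPM, injured wild-type libraries 9026, 10571 and 10628 CPM, and injured knockout libraries 1038, 531 and 407 CPM. All 3 knockout libraries lay above all sham libraries and far below the injured wild-type ones. Spp1 rose 28.5-fold with injury (log2 fold change 4.83, SE 0.32, edgeR adjusted p = 5.28e-07) and was 15.3-fold lower in knockout than in wild-type injured kidneys (-3.94, SE 0.31, adjusted p = 1.54e-06). In injured wild-type kidneys it took 1.31% ± 0.138 of all counts, beside 0.0313% ± 0.00226 in sham and 0.0570% ± 0.0288 in knockout kidneys (SD, n = 3). Its gene overlaps Gm42793 on the same strand, which held a mean of 0.364, 6.55 and 0.940 CPM in the 3 groups, and reads of the shared stretch cannot be assigned with certainty.

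Sox9 (a transcription factor of nephron progenitors that surviving tubule cells switch on after injury) is ENSMUSG00000000567 on chromosome 11, from 112782224 to 112787760 on the plus strand. Its values were 1.11, 1.55 and 1.67 CPM in sham, 34.3, 70.4 and 33.4 CPM in injured wild-type libraries, and 6.21, 0.829 and 0.756 CPM in knockout libraries. Knockout replicate 1 was above all sham libraries and replicates 2 and 3 were below all of them. The knockout values rest on 85, 11 and 11 counts and the sham values on 19, 28 and 28 counts. Sox9 rose 31.7-fold with injury (log2 fold change 4.99, SE 0.63, edgeR adjusted p = 4.21e-05). It was 17.7-fold lower in knockout than in wild-type injured kidneys (-4.15, SE 0.60, adjusted p = 0.000122), and 57.3-fold lower without knockout replicate 1.

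Sox4 (a related factor of the developing nephron; ENSMUSG00000076431, chromosome 13, 28948919 to 28953713, minus strand) moved less. It measured 20.9, 24.1 and 26.8 CPM in sham, 107, 136 and 103 CPM in injured wild-type libraries, and 21.3, 14.5 and 13.3 CPM in knockout libraries. The injured wild-type libraries stood apart, and only knockout replicate 1 of the knockout libraries lay within the sham range. The rise with injury was 4.83-fold (log2 fold change 2.27, SE 0.18, edgeR adjusted p = 1.49e-06) and the knockout was 7.06-fold below injured wild-type (-2.82, SE 0.19, adjusted p = 5.61e-07).

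Vcam1 (vascular cell adhesion molecule 1, which binds integrins of leukocytes and marks failed-repair proximal tubule cells in mouse; ENSMUSG00000027962, chromosome 3, 116109949 to 116129688, minus strand) is also made by activated endothelium. Sham libraries held 22.1, 23.4 and 14.1 CPM, injured wild-type libraries 433, 510 and 378 CPM, and injured knockout libraries 33.7, 14.02 and 14.3 CPM. Knockout replicate 1 was above all sham libraries, and the other knockout libraries were near the lowest sham library. The log2 fold change with injury was 4.47 (SE 0.34, edgeR adjusted p = 1.10e-06). Knockout kidneys lay 21.3-fold below injured wild-type kidneys (-4.41, SE 0.34, adjusted p = 1.32e-06), and 30.9-fold below without knockout replicate 1.

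Dcdc2a (a doublecortin-domain protein of microtubules and cilia; ENSMUSG00000035910, chromosome 13, 25056004 to 25210706, plus strand) followed Vcam1 at a lower level. It measured 7.92, 8.31 and 7.86 CPM in sham, 98.3, 88.1 and 102 CPM in injured wild-type libraries, and 12.3, 6.33 and 7.01 CPM in knockout libraries. Injured wild-type libraries were above all others, and knockout replicate 1 was above and replicates 2 and 3 below the narrow sham range. Dcdc2a rose with injury (log2 fold change 3.58, SE 0.20, edgeR adjusted p = 2.44e-07), and its log2 fold change for injured knockout against injured wild-type was -3.49 (SE 0.20, adjusted p = 3.43e-07).

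Sema5a (a membrane-bound semaphorin, a guidance cue whose plexin receptors are known in mouse) is ENSMUSG00000022231 on chromosome 15, from 32244810 to 32696341 on the plus strand. Sox4 also had its lowest group mean in the knockout, but only Sema5a had every knockout library below every sham library. Sema5a levels are given first by group. Its levels were 54.9, 53.1 and 53.6 CPM in sham, 136, 119 and 111 CPM in injured wild-type libraries, and 34.2, 34.7 and 36.2 CPM in knockout libraries. The groups did not overlap, and the knockout libraries were the lowest of all 9, with replicate 1 in step with the other knockout libraries. The rise with injury was modest (log2 fold change 1.18, SE 0.10, edgeR adjusted p = 1.97e-06). The knockout lay 3.48-fold below injured wild-type (-1.80, SE 0.10, adjusted p = 2.59e-07).

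Plin2 (perilipin 2; ENSMUSG00000028494, chromosome 4, 86648386 to 86670060, minus strand) did not follow the other 9. It measured 101, 96.4 and 116 CPM in sham, 123, 160 and 113 CPM in injured wild-type libraries, and 127, 167 and 138 CPM in knockout libraries. Injured wild-type libraries overlapped both other groups. The log2 fold change with injury was 0.34 (SE 0.15, edgeR adjusted p = 0.0669), and for injured knockout against injured wild-type it was 0.13 (SE 0.15, adjusted p = 0.482). With libraries scaled by size alone these values were 0.88, which was called, and -0.45 (adjusted p = 0.0120), while the median of all tested genes moved from 0.03 to 0.57 and from -0.01 to -0.59. Relative to that shift Plin2 did not turn. The first value was also called, at 0.44, without injured wild-type replicate 3, and at 0.33 without the low-count filter (adjusted p = 0.0367).

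**Figure D2:**
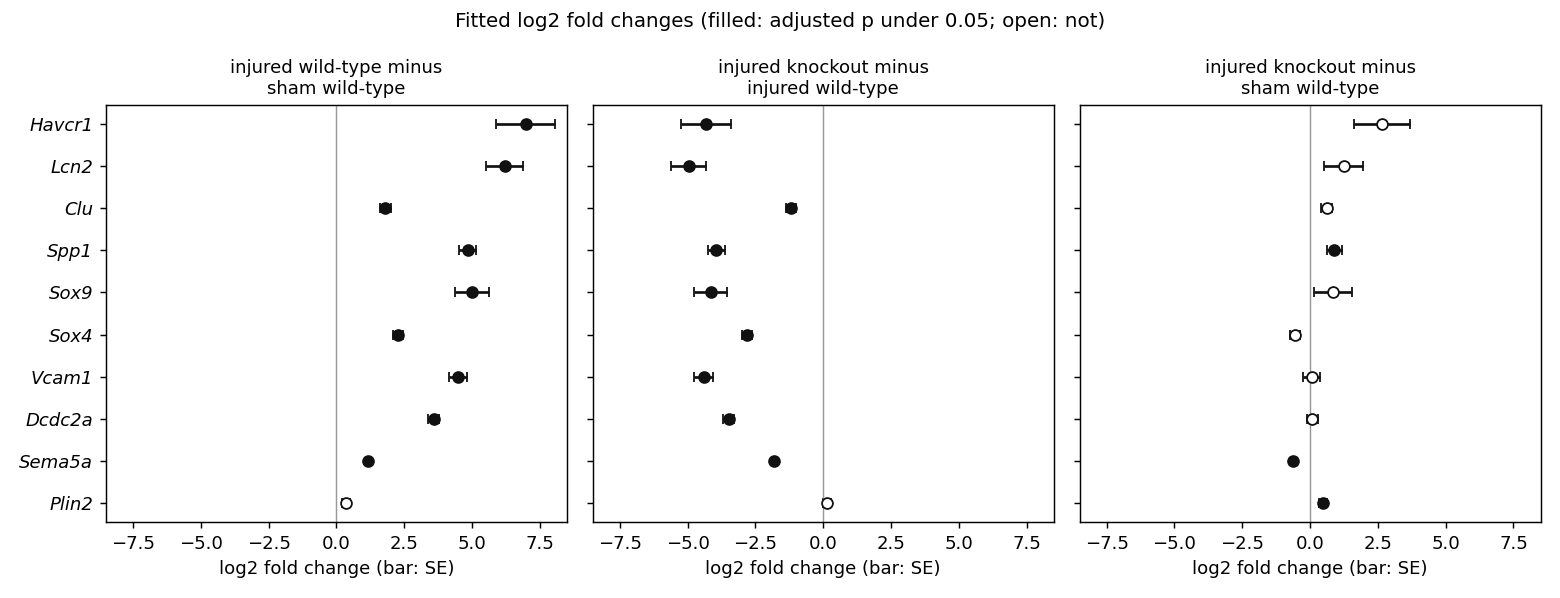
Fitted log2 fold change of each of the 10 genes in injured wild-type minus sham, injured knockout minus injured wild-type and injured knockout minus sham kidneys. Bars give the SE derived from the F statistic of the test, with 3 libraries per group and filled points for an adjusted p under 0.05. The fold change runs from 0.34 (Plin2) to 6.98 (Havcr1) with injury, and in knockout against sham 3 points are filled, Spp1, Sema5a and Plin2.

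The third comparison sets injured knockout beside sham wild-type kidneys. With no knockout sham group in the analysis, genotype and injury cannot be told apart in it. Of the 10 genes 2 were called higher, Spp1 and Plin2, and 1 lower, Sema5a, while 8.13% of all tested genes were called higher and 9.48% lower. The median log2 fold change was 0.54 for the 10 genes and 0.01 for all tested genes. Every knockout library was above every sham library for 2 of the 10 genes (18.4% of tested genes), Spp1 and Plin2, and below for 1, Sema5a (17.8%).

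In injured knockout kidneys Sema5a lay 1.54-fold below sham (log2 fold change -0.62, SE 0.10, edgeR adjusted p = 0.00507), and this call was kept in all 17 alternative fits. Spp1 was 1.87-fold higher (0.90, SE 0.28, adjusted p = 0.0452), but its value was 0.41 (adjusted p = 0.124) without knockout replicate 1, and the call also ended on leaving out knockout replicate 2, injured wild-type replicate 1 or 2 or any sham replicate. It was lost as well with limma-voom, with only the groups compared and with the replicate block, so in 10 of 17 alternatives. Plin2 was 1.38-fold higher (0.47, SE 0.15, adjusted p = 0.0491). Its call was lost without any 1 of the 3 sham replicates, injured wild-type replicate 1 or knockout replicate 2 or 3, with values from 0.35 to 0.55 on the log2 scale over all fits that left out a library. DESeq2 size factors, library size alone and the replicate block also ended it, which makes 9 of 17 alternatives. Clu had a log2 fold change of 0.61 (SE 0.20, adjusted p = 0.0537) and Sox4 of -0.55 (SE 0.18, adjusted p = 0.0582). Clu was called higher in 6 of 17 alternatives, among them DESeq2's Wald test and limma-voom, and Sox4 was called lower in 5, among them DESeq2's Wald test and the fit without knockout replicate 1. Havcr1, Lcn2 and Sox9 had values of 2.65, 1.24 and 0.84 with wide errors (SE 1.02, 0.72 and 0.71, adjusted p = 0.0914, 0.248 and 0.436). Vcam1 and Dcdc2a lay close to the sham level, at 0.06 (SE 0.31, adjusted p = 0.913) and 0.09 (SE 0.21, adjusted p = 0.799).

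Several values of that comparison moved with knockout replicate 1. This library was the highest of the 3 knockout libraries for 7 of the 10 genes, as it was for 38.2% of all tested genes, and the exceptions were Clu, Sema5a and Plin2. It stood at least 2-fold above each of the other knockout libraries for 4 genes, Havcr1, Lcn2, Sox9 and Vcam1, where 2.28% of tested genes did. Knockout replicates 2 and 3 stood so for 0 of the 10 genes (2.11 and 1.97% of tested genes). Replicate 1 exceeded replicates 2 and 3 by 16.1-fold and 53.1-fold for Havcr1, by 6.04-fold and 10.3-fold for Lcn2, and by 7.49-fold and 8.21-fold for Sox9. The gap was 2.40-fold and 2.36-fold for Vcam1, 1.96-fold and 2.55-fold for Spp1, and 1.94-fold and 1.75-fold for Dcdc2a. Even so the lowest injured wild-type library exceeded knockout replicate 1 by 5.22-fold for Havcr1, 7.73-fold for Lcn2, 5.38-fold for Sox9 and 11.2-fold for Vcam1.

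**Figure D3:**
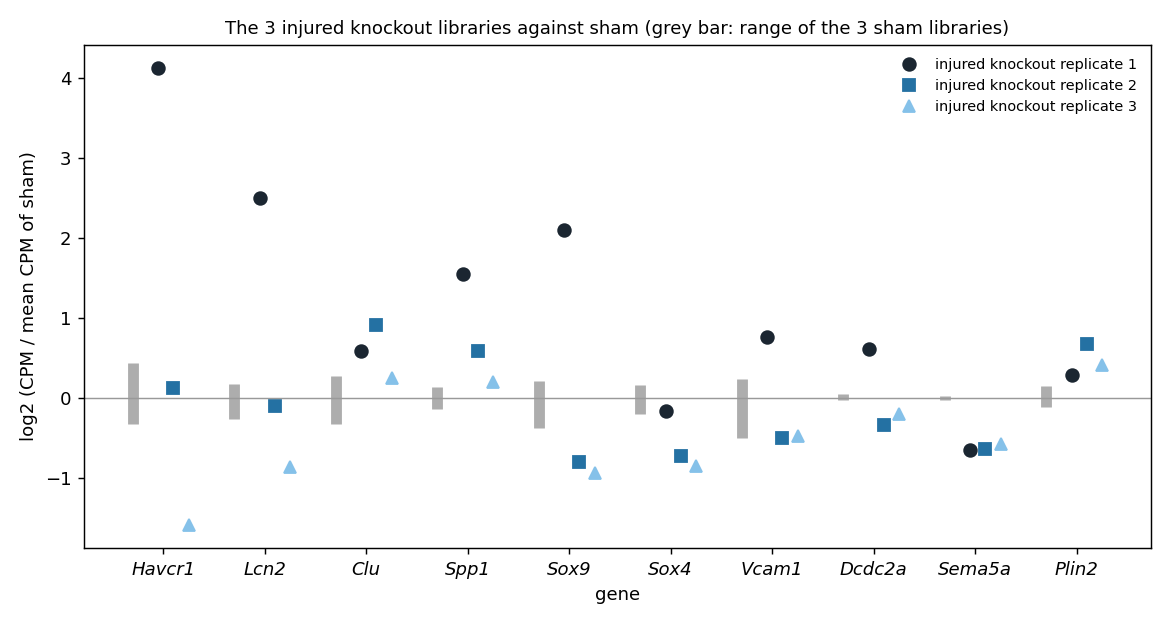
Level of each of the 10 genes in the 3 injured knockout libraries, as log2 of CPM over the mean CPM of sham, with grey bars for the range of the 3 sham libraries. Replicate 1 (dark circles) lies above the sham range for 8 genes (36.3% of tested genes) and far above replicates 2 and 3 for Havcr1, Lcn2 and Sox9, while all 3 knockout libraries lie below sham for Sema5a.

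Replicate 1 was above all sham libraries for 8 genes (36.3% of tested genes), below them for Sema5a (35.6%) and within their range for Sox4. Replicates 2 and 3 were both above all sham libraries for 2 genes, Spp1 and Plin2 (24.5% of tested genes), both below for 4, Sox9, Sox4, Dcdc2a and Sema5a (24.8%), and not apart from sham for the other 4. Without knockout replicate 1 the same 9 genes were lower in knockout than in wild-type kidneys after injury (27.0% of 16587 tested genes were called lower). Against sham, 1 gene was then higher, Plin2 (0.55, edgeR adjusted p = 0.0354; 6.7% of genes). Sox4 (-0.79, adjusted p = 0.0114) and Sema5a (-0.60, adjusted p = 0.00990) were lower (9.08% of genes). The values of Havcr1, Lcn2 and Sox9 against sham changed sign without this library, to -0.52, -0.44 and -0.86 (adjusted p = 0.438, 0.588 and 0.307). Vcam1 and Dcdc2a moved to -0.49 and -0.26 (adjusted p = 0.133 and 0.191). Without knockout replicate 3 instead, Havcr1 was called higher than sham, at 3.22.

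Marker levels of other cell types also differed in knockout replicate 1. Summed podocyte markers held 78.9 CPM there against 336 and 350 CPM in replicates 2 and 3, and summed endothelial markers 280 CPM against 670 and 698 CPM. All 4 podocyte, all 9 endothelial and 7 of 8 fibroblast markers were lowest in it among the knockout libraries, as were 35.5% of all tested genes. Of the markers of the loop of Henle, distal tubule and collecting duct 9 of 13 were highest in it, with the water channel Aqp2 at 1434 CPM against 477 and 536 CPM (Aqp2 was picked after its values were seen). Summed macrophage markers held 149 CPM in it, the lowest of the 3. All 5 tested neutrophil markers were highest in it (38.2% of all tested genes), with a sum of 5.77 CPM against 2.94 and 3.30 CPM. These rest on few counts, at most 31 in a knockout library (Csf3r), and on 1, 0 and 0 counts for Retnlg. The part of these shifts in the values of the 10 genes was not tested.

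Within the injured wild-type group, replicate 2 was the highest library for 7 of the 10 genes (36.9% of all tested genes) and replicate 3 the lowest for 7 (41.3%). The largest ratio between libraries there was 2.56 for Lcn2, followed by 2.11 for Sox9, and each of the other 8 genes stayed within 1.59. Sham libraries differed at most 1.69-fold, for Havcr1.

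To compare levels between genes, counts were divided by exon length and scaled to the same total in each library (TPM), a scale that is used here within a group only. In sham kidneys Spp1 led at 487 TPM, followed by Clu (242), Plin2 (67.9), Sox4 (11.5), Sema5a (6.58), Vcam1 (5.09), Havcr1 (2.90), Dcdc2a (2.22), Lcn2 (2.17) and Sox9 (0.806 TPM). Sema5a and Vcam1, Vcam1 and Havcr1, Havcr1 and Dcdc2a, and Dcdc2a and Lcn2 overlapped over the 3 libraries, so their order is not firm. In injured wild-type kidneys the order was Spp1 (21902), Clu (1312), Havcr1 (567), Lcn2 (252), Vcam1 (177), Plin2 (134), Sox4 (86.0), Dcdc2a (41.6), Sox9 (39.6) and Sema5a (23.3 TPM). Lcn2 and Vcam1, Vcam1 and Plin2, and Dcdc2a and Sox9 overlapped there. By place among the 10 within each group, Havcr1 and Lcn2 thus went from 7 and 9 to 3 and 4, and Sema5a from 5 to 10. Sema5a lost places although its own level rose with injury. Spp1 ranked between 4 and 6 among all genes in each injured wild-type library. In injured knockout kidneys the order was Spp1 (783), Clu (315), Plin2 (80.4), Havcr1 (15.7), Sox4 (6.69), Vcam1 (4.58), Lcn2 (4.45), Sema5a (3.68), Dcdc2a (2.02) and Sox9 (1.24 TPM). From Havcr1 downwards neighbours overlapped, except Sema5a and Dcdc2a. The places of Havcr1 and Lcn2 there rest on knockout replicate 1. Over replicates 2 and 3 alone Havcr1 averaged 1.72 TPM, at place 7 behind Sox4 (5.65), Sema5a (3.71) and Vcam1 (3.12), and Lcn2 averaged 1.37 TPM, at place 9 behind Dcdc2a (1.58).

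The wider programme was described through lists of other genes. Their counts stand beside the shares of all tested genes called. These were 29.5% higher and 28.7% lower with injury, and 27.8 and 28.1% in injured knockout against injured wild-type. In knockout against sham they were 8.13 and 9.48%. Of 25 other genes of acute tubular injury 20 rose with injury and 1, Hmox1, a heme-degrading enzyme, fell, with a median log2 fold change of 2.21. In knockout against injured wild-type kidneys 22 were lower and 0 higher (median -2.28). Mmp7, a matrix protease, held 0 counts in all 3 sham libraries and 8.99 CPM in injured wild-type kidneys, at least 156-fold higher against a floor of 3 counts over the sham group, and 0.118 CPM in knockout kidneys. Krt20, an intermediate filament keratin, stood at 60.1, 93.7 and 36.3 CPM in injured wild-type and at 11.6, 0.0754 and 1.93 CPM in knockout libraries, with replicate 1 again the highest. Against sham 2 of the 25 were higher in the knockout (8.13% of all tested genes), the keratin Krt7 (0.74) and the lectin Lgals3 (0.84). As many as 2 were lower (9.48%), Hmox1 (-1.17) and the transcription factor Myc (-2.16). Without knockout replicate 1 the number lower was 5.

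Of 14 other genes of failed-repair tubule cells 13 rose with injury and 1, the integrin subunit Itgb8, fell (log2 fold change -1.25), with a median of 2.35. The same comparison of injured knockout with injured wild-type kidneys found 13 lower, 0 higher and Itgb8 not called (median -2.81). Ccl2, a chemokine that attracts monocytes, held 56.3, 70.0 and 60.5 CPM in injured wild-type libraries and 5.77, 0.377 and 0.275 CPM in knockout libraries. Tgfb2, a profibrotic growth factor, held 17.98, 18.9 and 12.1 CPM in injured wild-type and 1.39, 1.96 and 1.93 CPM in knockout libraries, without a high replicate 1. Against sham 0 of the 14 were higher in the knockout (8.13% of all tested genes), with a median of -0.21, and 1, Itgb8, was lower (9.48%). The number lower was 3 without knockout replicate 1, where Ccl2 had a log2 fold change of -1.79 (edgeR adjusted p = 0.0424) in place of 0.91.

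Partners and receptors of the 10 proteins moved in both directions. Of 17 tested 10 rose with injury and 6 fell (median 0.60), and 6 were higher and 10 lower in knockout than in wild-type injured kidneys (median -0.93). Cd44, which binds osteopontin and hyaluronan, rose with injury from a mean of 4.41 to 134 CPM and stood at 12.1, 2.94 and 2.34 CPM in knockout libraries. Lrp2 (megalin), the endocytic receptor that takes up lipocalin 2 in proximal tubule, fell from a mean of 2634 to 417 CPM and stood at 1449 CPM in knockout kidneys, called lower than in sham (-0.86, edgeR adjusted p = 0.00767). The genes that fell besides Lrp2 were the lipocalin receptor Slc22a17, the lipoprotein receptor Vldlr and 3 genes of fat storage and breakdown, Pnpla2, Abhd5 and Dgat2, named here after their values were seen. Dgat2, which makes triglyceride, had a log2 fold change of -2.21 with injury and 2.33 in knockout against injured wild-type kidneys, while Plin2 was called in neither.

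Among 14 tested paralogs of the 10 genes 7 rose with injury and 2 fell, Timd2 (-0.57), of the family of Havcr1, and Plin5 (-1.40), a lipid droplet protein of oxidative tissues. In knockout against injured wild-type kidneys 7 were lower and 2 higher, Plin5 (2.65) and Dcdc2b (0.90). The medians of the list were 0.86 and -0.54. Dclk1, a doublecortin-domain kinase, rose from a mean of 0.422 to 11.6 CPM, and Sox11, a paralog of Sox4, from 0.398 to 9.29 CPM. Sox11 then measured 0.950, 0 and 0 CPM in the knockout libraries. Plin5 was at 6.86, 4.15 and 6.79 CPM in sham, 2.35, 2.40 and 1.98 CPM in injured wild-type libraries, and 12.9, 20.5 and 9.08 CPM in knockout libraries, so that each knockout library exceeded each sham library (log2 fold change 1.25, edgeR adjusted p = 0.0168). Icam1, an adhesion molecule related to Vcam1, was the 1 paralog called lower in knockout than in sham kidneys (-0.69, adjusted p = 0.0456).

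Markers of several cell types of the kidney were read beside the 10 genes. All 16 proximal tubule markers fell with injury (median -2.22), and all 16 were higher in knockout than in wild-type injured kidneys (median 1.90). The transporter Slc7a13 went from a mean of 1610 to 197 CPM with injury and stood at 1068 CPM in knockout kidneys. Against sham 5 of the 16 were lower in the knockout and 1, Miox, was higher (median -0.46), and 3 were lower without knockout replicate 1. Of 13 markers of the loop, distal tubule and collecting duct 8 fell with injury and 0 rose, which became 3 and 3 with libraries scaled by size alone. In knockout against injured wild-type kidneys 10 of them were higher and 0 lower, or 4 and 1 with that scaling. Pvalb of the distal convoluted tubule had log2 fold changes of -2.55 and 3.32, and Slc26a4 of intercalated cells of -1.68 and 2.20, in these comparisons.

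All 12 tested macrophage markers rose with injury (median 3.37), and all 12 were lower in knockout than in wild-type injured kidneys (median -3.55), while Trem2 was listed at 0 in every library. Their summed level was 153 to 214 CPM in sham, 1793 to 2008 CPM in injured wild-type and 149 to 182 CPM in knockout libraries. Lyz2 (lysozyme, which shares sequence with a close paralog) went from a mean of 31.1 to 814 CPM and stood at 20.6 CPM in knockout kidneys. Gpnmb of lipid-laden macrophages had means of 0.249, 12.9 and 0.695 CPM in the 3 groups. The collagens Col1a1 and Col3a1 of scar-forming fibroblasts had log2 fold changes of -4.30 and -4.28 in injured knockout against injured wild-type, and of 1.17 and 0.88 against sham. All 8 fibroblast markers likewise rose and were lower in the knockout (medians 3.35 and -2.71), with sums of 141 to 233, 2097 to 2834 and 157 to 309 CPM. Macrophages and fibroblasts can also make Spp1, and the part of these cells in the values of the 10 genes was not tested.

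Of 8 neutrophil markers 5 passed the filter, of which 2 rose with injury, Csf3r and Cxcr2, and 1, Retnlg, fell. All 5 were lower in knockout than in wild-type injured kidneys, on summed levels of 23.6 to 37.1 CPM in injured wild-type, 10.9 to 14.1 CPM in sham and 2.94 to 5.77 CPM in knockout libraries. Ly6g, Mpo and Elane did not pass the filter. Of 9 endothelial markers 2 fell with injury, Kdr and Flt1, and 0 were called in injured knockout against injured wild-type by edgeR, by DESeq2 or by limma-voom, with 0 at an unadjusted p under 0.05. With scaling by library size alone these counts became 2 higher with injury and 8 lower in the knockout, and without knockout replicate 1 they were 4 lower and 1 higher. Of 4 podocyte markers 0 were called in the 3 comparisons by edgeR, by DESeq2 or by limma-voom, with 0 at an unadjusted p under 0.05, and without knockout replicate 1 there were 3 lower with injury and 3 higher in the knockout. Of 5 adipocyte markers 1, Fabp4, passed the filter and was not called.

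**Figure D4:**
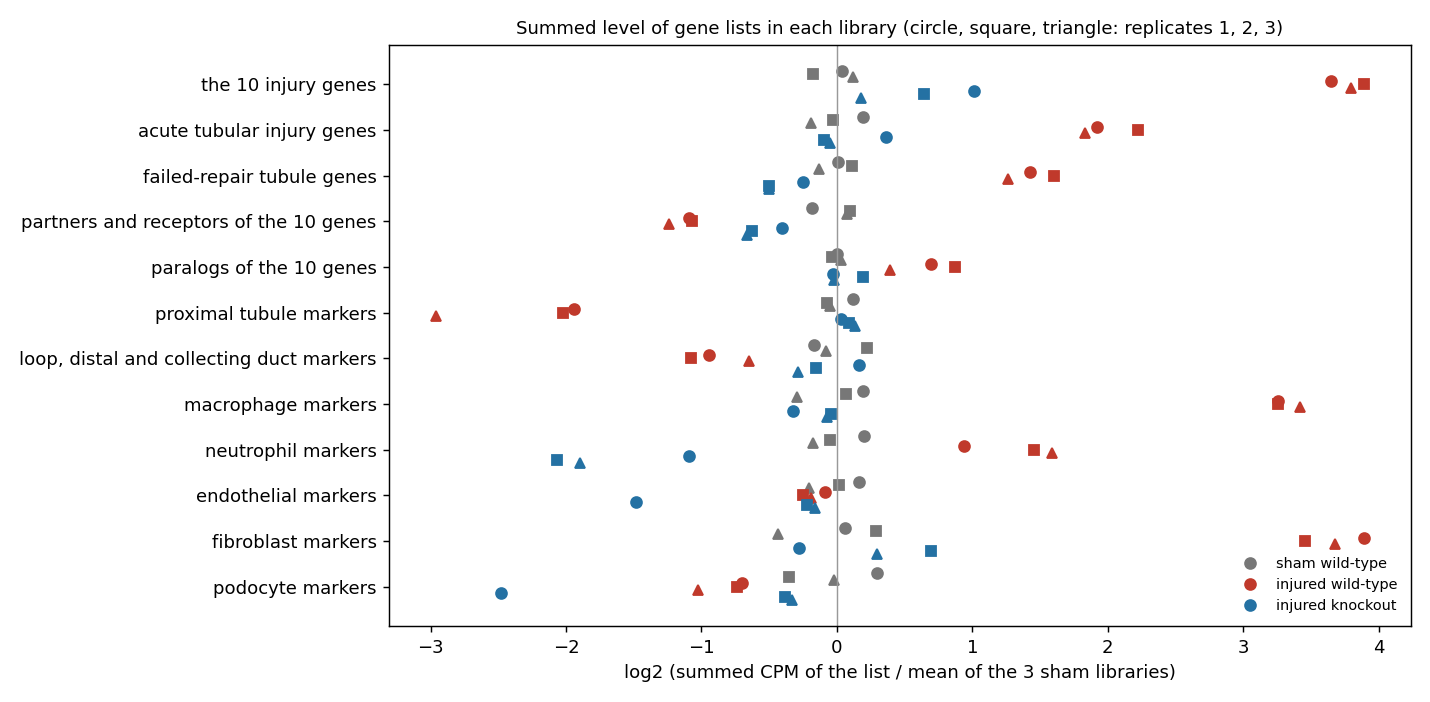
Summed CPM of each gene list in each library as log2 over the mean of the 3 sham libraries, for sham (grey), injured wild-type (red) and injured knockout (blue), with replicates 1, 2 and 3 as circle, square and triangle. Injured wild-type libraries lie to the right of the rest for the injury, failed-repair, macrophage and fibroblast lists and to the left for proximal tubule markers, and knockout replicate 1 lies lowest for podocyte (78.9 CPM) and endothelial markers (280 CPM).

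The tested genes most like each of the 10 were found by the root mean square (rms) difference between log2 CPM profiles over the 9 libraries, each less its own mean, among 10946 protein-coding genes. Features that these genes share with the 10 follow from this choice and are description only. The nearest to Havcr1 was Aoc1, which encodes an amine oxidase, at an rms difference of 0.584, followed by the chemokine Cxcl2 at 0.701. Aoc1 held 315, 299 and 243 CPM in injured wild-type and 21.3, 2.41 and 2.13 CPM in knockout libraries, and so shared the high knockout replicate 1. Lcn2 was nearest to Serpina10 (0.420) and Aoc1 (0.440), and Sox9 to Cd44 (0.454) and the complement gene C3 (0.544). Sox4 was nearest to Myof (0.140) and Ankrd6 (0.143), Dcdc2a to the tight junction gene Cldn1 (0.160) and Cd83 (0.273), and Vcam1 to Sytl2 (0.248) and Serpina3n (0.328). Sema5a lay at 0.124 from Armcx3 and 0.129 from Vasp, which shared knockout levels below sham. Clu lay at 0.218 from Hmga1 and 0.219 from Cstb, and Spp1 at 0.358 from Aldh1a2 and 0.400 from Glipr2. Plin2 was nearest to Mgat4b (0.106) and Nop53 (0.110), neither of which showed a large change between groups.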

How the data were processed

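Total RNA of whole kidney was sequenced after NEBNext Ultra library preparation, per the labels' protocols. The deposited values are whole-number counts per Ensembl gene, not normalised, 1 column per library. The submitters' processing notes name mm10 and DESeq2 1.16.1 without a role, with aligner, counter and strand setting not given in the sources used here. Vcam1 and Sox4 overlap genes on the other strand (Gm43109 and Gm26735). GENCODE M21, of the same build, matched 55227 identifiers and left 1078 unmatched, and 0 sample columns were unmapped. Replicates of a group differed by more than sampling noise.

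The test was that of edgeR 4.0.16, run in R 4.3.3 (filterByExpr, which kept 15974 genes; TMM scaling; quasi-likelihood fit with 1 term per group over all 9 libraries; 2-sided; Benjamini-Hochberg over all tested genes; false discovery rate under 0.05). Each SE given with an edgeR log2 fold change is its absolute value divided by the square root of the quasi-likelihood F statistic. Comparing groups over 3 libraries each, precision is limited by their number. Counting floors of 3 counts cover counting error only. Profiles used log2 CPM with a prior count of 2, and TPM used union exon length. The procedure was also run on simulated counts with few changed genes and otherwise equal groups. Such a run cannot check the scaling of libraries in which many genes changed, as here.

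The 10 genes, the lists and the tests were chosen with earlier results of these data known, and the 2-fold threshold between knockout libraries after their values were seen. Named were all 10 genes, Pfkfb3, the 2 largest called changes with injury per list (mean of at least 1 CPM), exceptions of 5 or fewer genes, and the 2 nearest profiles per gene (mean of at least 5 CPM). Other names are said to be picked afterwards where they appear.

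Alternatives were scaling by library size alone or by DESeq2 size factors, limma-voom (limma 3.58.1), the Wald test of DESeq2 1.42.0, a minimum mean CPM of 1, no filter on low counts, only the groups compared, a replicate block, and leaving out each library. TPM without knockout replicate 1 was added after seeing the data. Promoter sequence came from RefSeq tables.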

Additional observations from a re-analysis of the deposited data

How the results depend on the processing

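Over 17 alternatives, 8 to 10 of the 10 genes were called higher with injury and 8 to 10 lower in injured knockout against injured wild-type kidneys, with 0 in the other direction. The 8 come from DESeq2's Wald test, which gave Havcr1 no adjusted p. Counts against sham were small and moved more. From 2 higher and 1 lower, they became 1 and 2 with DESeq2 size factors, 1 and 2 with library size alone, and 5 and 2 without the low-count filter, while DESeq2's Wald test gave 2 lower. Leaving out a library gave 0 to 3 higher and 1 to 2 lower. Of the genes of the wider lists, 14 were higher and 17 lower in knockout than in sham kidneys, which became 24 and 36 without the low-count filter, and 4 to 15 and 5 to 22 on leaving out a library.

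Same-numbered libraries did not deviate together (r = -0.119 to 0.0630, with 0 of 9 pairs over 0.1), so the numbers were not used as pairs. The replicate block left 0 of the 10 genes higher in knockout than in sham kidneys. Of the genes in the wider lists it left 10 higher and 10 lower.

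Scaling by library size alone raised the share of higher calls with injury from 50.6 to 82.0% of all called genes, lowered it from 49.7 to 16.9% in injured knockout against injured wild-type, and from 46.1 to 38.9% in knockout against sham. With it, log2 fold changes turned sign for Cdh5 with injury (0.51), and for Plin2 (-0.45), Itgb8 (-0.46), Vldlr (-0.17), Dgat1 (-0.33) and Nop53 (-0.51) in injured knockout against injured wild-type. Ccl2 in knockout against sham ran from -1.79 without knockout replicate 1 to 1.44 without replicate 3. The cause was not tested. Of 8388 values for single genes under an alternative, 7955 kept their call and, where called, their direction, 248 lost a call, 178 gained one and 7 turned. Depth limits Havcr1, Lcn2 and Sox9 most in sham and knockout libraries, where Havcr1 rested on as few as 14 counts and Sox9 on as few as 11.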
